A study of Mus musculus with 8 samples.

Results

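The regulatory T cell genes described here are Foxp3, Il2ra, Ikzf2, Ikzf4, Tnfrsf4, Tnfrsf9, Tnfrsf18, Ccr8, Il10 and Lrrc32, which are 10 of the 25006 genes counted in each library. They were chosen as a list of genes known from regulatory T cells, with earlier results of these data known. They were found by matching Ensembl identifiers to mouse symbols. RNA was sequenced from tumors of 4T1, a mouse mammary carcinoma line that models triple-negative breast cancer, grown in the fat pad for at most 20 days. The design asked how loss of CD95, the death receptor encoded by Fas, relates to gene expression of the tumor in 2 mouse hosts. The 8 libraries formed 4 groups of 2, wild type and knockout in NSG and wild type and knockout in Balb/c. NSG mice are immunodeficient and lack mature T, B and NK cells, whereas Balb/c, the strain from which 4T1 arose, is immunocompetent. In each host the wild-type tumors came from the parental line and from a line stably carrying vCas9, and the knockout tumors from CRISPR/Cas9 clones 54 and 69 of the same line. CD95 was removed from the tumor cells alone, so all host cells kept it. The 2 libraries of a group are therefore different lines, and clonal origin cannot be told apart from CD95 status. Ages and sexes of the mice, and the number of tumors behind a library, are not given in the sources used here, so p-values measure only the spread between these libraries.

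Regulatory T cells are CD4 T cells that restrain other immune cells, and the X-linked transcription factor Foxp3 defines the lineage. They carry the high-affinity interleukin 2 receptor, whose alpha chain is CD25 (Il2ra), and depend on interleukin 2 made largely by other T cells, which signals through STAT5 and helps to keep Foxp3 expressed. Helios (Ikzf2) and Eos (Ikzf4) are Ikaros family factors of these cells, and OX40 (Tnfrsf4), CD137 (Tnfrsf9) and GITR (Tnfrsf18) are costimulatory receptors that conventional T cells also gain on activation. In tumors, regulatory T cells often carry the chemokine receptor CCR8. Interleukin 10 (Il10) is a suppressive cytokine that macrophages also make, and GARP (Lrrc32) docks latent TGF-beta on the cell surface of regulatory T cells, platelets and endothelial cells.

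All 10 genes are protein-coding, and they lie on 7 chromosomes. In GRCm38, Foxp3 spans 7573644 to 7595245 on the plus strand of chromosome X, Il2ra 11642807 to 11693193 on chromosome 2, and Ccr8 120092114 to 120094906 on chromosome 9. Ikzf2 lies at 69531214 to 69687245 and Il10 at 131019845 to 131024974 on chromosome 1, Ikzf4 at 128630843 to 128645991 on chromosome 10, and Lrrc32 at 98489283 to 98502181 on chromosome 7. The 3 TNF receptor genes are on chromosome 4, with Tnfrsf9 at 150914562 to 150946102. Tnfrsf4 (156013843 to 156016612) and Tnfrsf18 (156026164 to 156028895) are separated by 9551 bases. Exons of Foxp3 overlap those of Flicr on the same strand by 853 bases and those of Ccdc22 and Ppp1r3f on the opposite strand by 590 and 266 bases. The strand setting of the counting is not given in the sources used here, so Foxp3 counts could include or lose reads of these neighbours.

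Promoter sequence of 6 of the 10 genes was in the RefSeq table of GRCm38.p6, from 250 bases before to 50 bases after each annotated start. Ikzf2, Ikzf4, Il10 and Lrrc32 had no entry. The 4 promoters shown are those, of 8 windows, with a match to STAT or NF-kB motifs, factors that act downstream of the interleukin 2 and TNF receptors. All 6 genes were higher in Balb/c tumors in both genotypes. The windows of Tnfrsf4 and Ccr8 held neither of these 2 motifs, and the first start of Foxp3 held none of the motifs searched. The matches therefore do not bear on the host difference. All 4 read along the plus strand, and capitals mark the motif matches.
Foxp3, second start, chrX:7580233-7580532: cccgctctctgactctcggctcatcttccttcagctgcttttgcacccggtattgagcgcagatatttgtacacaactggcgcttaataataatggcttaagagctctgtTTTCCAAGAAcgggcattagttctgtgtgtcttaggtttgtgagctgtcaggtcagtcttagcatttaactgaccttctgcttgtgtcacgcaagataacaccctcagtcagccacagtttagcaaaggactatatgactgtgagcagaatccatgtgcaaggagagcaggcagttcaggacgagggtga
Il2ra, chr2:11642542-11642841: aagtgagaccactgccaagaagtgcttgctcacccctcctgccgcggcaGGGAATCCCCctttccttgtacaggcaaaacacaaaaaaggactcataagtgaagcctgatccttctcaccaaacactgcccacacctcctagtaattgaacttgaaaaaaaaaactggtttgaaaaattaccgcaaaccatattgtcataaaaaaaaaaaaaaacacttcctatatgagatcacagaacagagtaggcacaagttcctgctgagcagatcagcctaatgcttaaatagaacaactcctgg
Tnfrsf9, second start, chr4:150927749-150928048: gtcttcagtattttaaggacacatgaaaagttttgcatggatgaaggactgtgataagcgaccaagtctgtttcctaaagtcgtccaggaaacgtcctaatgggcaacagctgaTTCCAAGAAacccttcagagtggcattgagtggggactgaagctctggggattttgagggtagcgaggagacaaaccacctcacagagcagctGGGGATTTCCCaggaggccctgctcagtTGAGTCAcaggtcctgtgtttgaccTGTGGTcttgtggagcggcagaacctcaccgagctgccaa
Tnfrsf18, chr4:156026072-156026371: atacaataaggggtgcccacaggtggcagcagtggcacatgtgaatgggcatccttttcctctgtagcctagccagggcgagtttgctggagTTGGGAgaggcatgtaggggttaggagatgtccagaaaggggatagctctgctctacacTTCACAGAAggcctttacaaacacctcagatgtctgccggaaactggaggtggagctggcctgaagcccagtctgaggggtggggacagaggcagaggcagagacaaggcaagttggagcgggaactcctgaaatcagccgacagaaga
The letters TTCNNNGAA, searched on both strands as a STAT motif, matched in 8.3% of 32851 promoters of the same length. They matched once in each of the promoters of Foxp3 (second start), Tnfrsf9 (second start) and Tnfrsf18, beginning 139, 136 and 99 bases before the start. The Foxp3 match overlaps a match to TTTCCA, the NFAT letters, which 21.4% of promoters held. The NF-kB letters, which run GGGNN followed by TTNCC, matched in 4.79% of promoters, among them Il2ra (on the other strand, so that it reads GGGAATCCCC above) and the second start of Tnfrsf9, where the matches GGGGATTTCC and GGGATTTCCC overlap. The same Tnfrsf9 window held TGAGTCA, a match to the AP-1 letters TGANTCA (7.81% of promoters), and the RUNX letters TGTGGT (16.8%). TTGGGA, the Ikaros letters, stood in 17.0% of promoters, among them those of Tnfrsf18 and, on the other strand, Ccr8. The remaining matches were of the NFAT letters, in the promoter of Tnfrsf4 and, on the other strand, at the first start of Tnfrsf9. The forkhead letters GTAAACA (3.65%) matched in none of the 8 windows of these 6 genes. A match shows only that these letters are present.

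Library totals ranged from 8.68 M to 19.7 M counts, a 2.26-fold span, so that 3 counts corresponded to between 0.159 and 0.321 CPM. CPM is the count scaled to depth, here by TMM, the edgeR method that corrects library totals for composition, and intervals on counts cover counting error only. Fas was still read in all libraries, at 12.9 to 33.8 CPM in NSG and 27.1 to 51.6 CPM in Balb/c. Its knockout log2 fold change amounted to -0.42 (SE 0.37, edgeR adjusted p = 0.628) in NSG and -0.70 (SE 0.36, edgeR adjusted p = 0.225) in Balb/c, so knockout status rests on the labels. The tissue held T cell RNA where the host has T cells: the summed level of the 12 T cell markers found among 15 listed was 453 to 583 CPM in the Balb/c libraries. In the 4 NSG libraries that sum was 5.99 to 12.5 CPM, and up to 2 of the 12 markers were at 0 counts in a library. Whole tumors were sequenced, so fewer cells of a type and less RNA per cell cannot be told apart in any result on these genes.

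Between hosts, 8 of the 10 genes were higher in Balb/c than in NSG wild-type tumors, and Lrrc32 was lower, by edgeR's quasi-likelihood test at an adjusted p of 0.05. Over all 15310 genes tested, 15.3% were called higher and 16.2% lower. The median log2 fold change of the 10 genes was 3.43, against -0.08 over all genes. In knockout tumors 7 genes were higher, against 15.7% of all genes, and Lrrc32 was again lower, against 15.4%. There the median was 2.73, against 0.02 over all genes. The general T cell markers differed more: 12 of 12 were called higher in both genotypes, against 15.3% and 15.7% of all genes. Their median was 5.99 in wild-type and 6.57 in knockout tumors, so the rise was not particular to the regulatory T cell genes. These markers summed to 56 to 170 counts per NSG library. All 10 genes passed the filter on low counts. Ccr8, which is counted among the 8 and the 7, passed it only through its Balb/c libraries, so it could be tested only if it differed between hosts. Over both genotypes the 4 Balb/c libraries lay above the 4 NSG libraries for 8 genes, against 16.1% of all genes, and below them for Lrrc32, against 17.5%. With total counts in place of TMM, the share of higher genes among those called moved from 48.6% to 36.5% in wild-type and from 50.5% to 37.3% in knockout tumors. Markers of other immune cells were also called higher in Balb/c, though not on every list. In wild-type tumors, against 15.3% of all genes, these were 5 of 5 B cell and 6 of 7 NK markers. They also included 5 of 7 dendritic cell and 4 of 7 type 2 lymphocyte markers. In knockout tumors, against 15.7%, the numbers in that order were 2 of 5, 6 of 7, 6 of 7 and 5 of 7. None of these markers was called lower. Per NSG library the 7 NK markers summed to only 14 to 76 counts, with 2 to 5 of them at 0. The 5 B cell markers summed to 9 to 16 counts, with 1 or 2 at 0. Markers this low in NSG may have passed the filter only through Balb/c, and could then be tested only if higher there. Other immune lists differed. Of 7 neutrophil markers 3 were called higher and 0 lower in wild-type tumors, and 1 higher and 1 lower in knockout tumors. Of 7 mast cell markers 5 were called lower and 1 higher in wild-type tumors, and 4 lower in knockout tumors. Of 9 macrophage markers 1 was called higher and 2 lower in wild-type tumors, and 7 higher in knockout tumors. The part of all these cells in the values of the 8 genes was not tested.

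**Figure D1:**
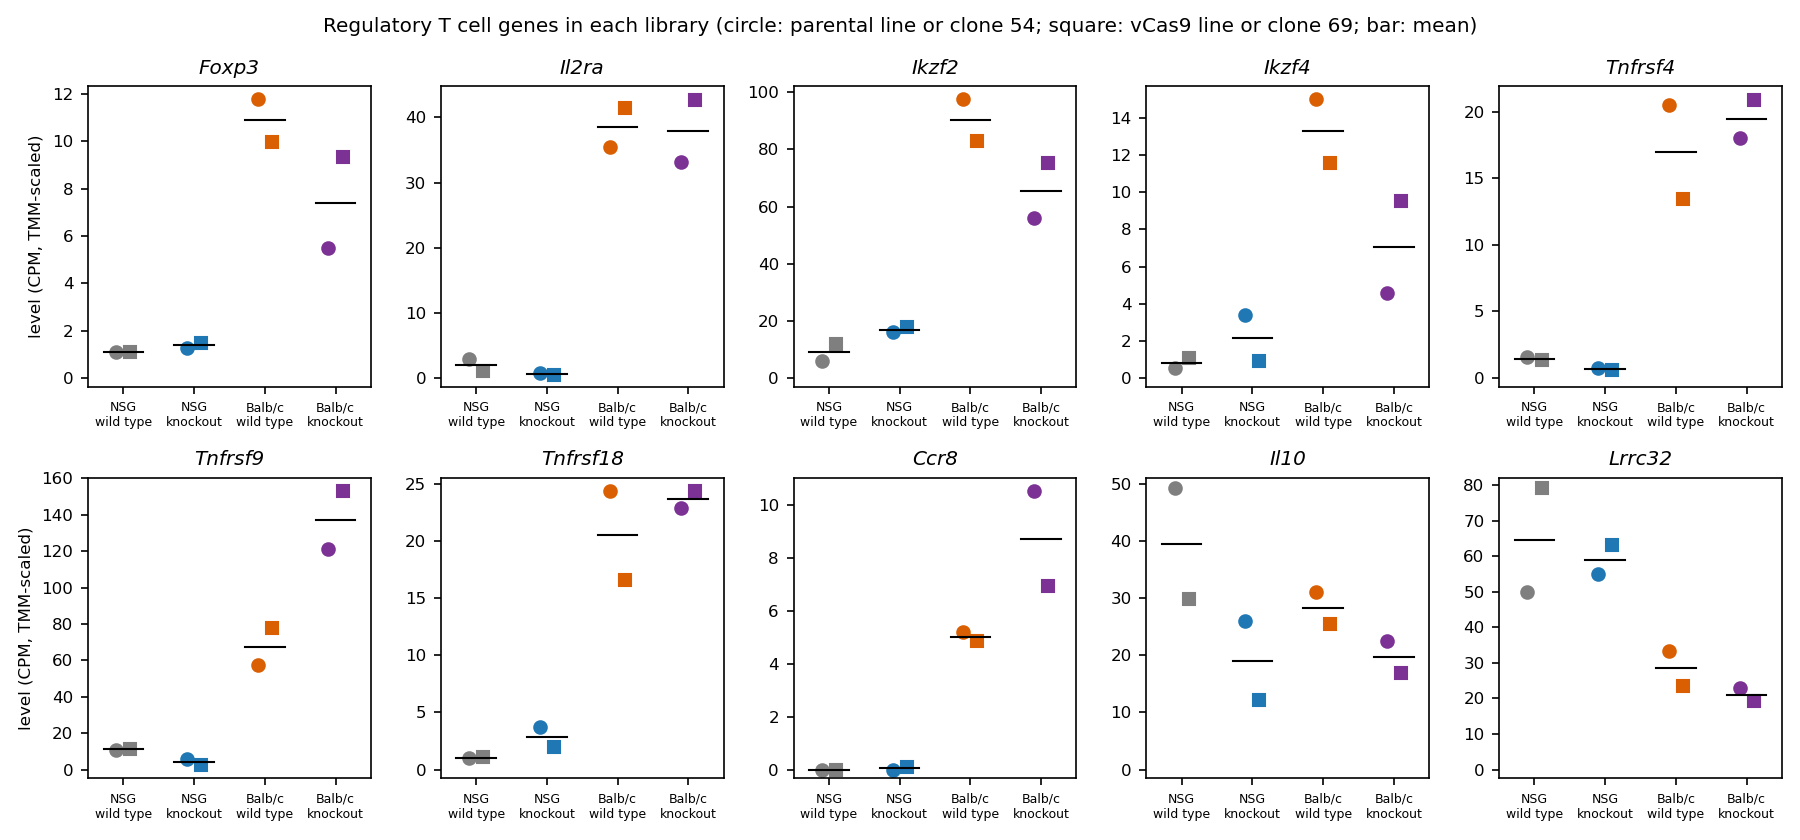
Level of each regulatory T cell gene in CPM (vertical axis, linear, own scale per gene) in the 8 libraries, with circles for the parental line or clone 54, squares for the vCas9 line or clone 69, and a bar at the mean of the 2 libraries. For 8 genes all 4 Balb/c libraries lie above all 4 NSG libraries, for Lrrc32 all 4 lie below, and for Il10 the hosts overlap.

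Of the nuclear factors, Foxp3 had 12 to 16 counts in each NSG library and 104 to 144 in each Balb/c library. Its levels were 1.11 and 1.08 CPM in NSG wild type, 1.28 and 1.49 CPM in NSG knockout, 11.8 and 9.97 CPM in Balb/c wild type, and 5.5 and 9.33 CPM in Balb/c knockout. The hosts did not overlap, and the lowest Balb/c library was that of clone 54. The host difference was 9.88-fold in wild type (log2 fold change 3.30, SE 0.37, edgeR adjusted p = 0.00175) and 5.29-fold in knockout tumors (2.40, SE 0.37, edgeR adjusted p = 0.00292). Of the overlapping neighbours, Ccdc22 was at 11.9 to 14.4 CPM in NSG and 12.5 to 20.9 CPM in Balb/c. Flicr, a noncoding RNA of the Foxp3 locus, had 2 to 7 counts in the NSG libraries, 37 and 31 counts in Balb/c wild type and 15 and 13 counts in Balb/c knockout, and was looked at after the Foxp3 values were seen.

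Ikzf2, which encodes Helios, was at 6.09 and 11.9 CPM in NSG wild type, 16.1 and 17.7 CPM in NSG knockout, 97.6 and 83.0 CPM in Balb/c wild type, and 55.9 and 75.3 CPM in Balb/c knockout. It was 10.1-fold higher in Balb/c in wild-type tumors (log2 fold change 3.33, SE 0.32, edgeR adjusted p = 0.00106) and 3.87-fold higher in knockout tumors (1.95, SE 0.31, edgeR adjusted p = 0.00314). Ikzf4, which encodes Eos, was at 0.554 and 1.08 CPM in NSG wild type, 3.42 and 0.894 CPM in NSG knockout, 15 and 11.6 CPM in Balb/c wild type, and 4.60 and 9.55 CPM in Balb/c knockout. The clone 54 libraries of the 2 hosts, at 3.42 and 4.60 CPM, came closest to each other. Ikzf4 was 16.4-fold higher in Balb/c in wild-type tumors (log2 fold change 4.04, SE 0.68, edgeR adjusted p = 0.00644), a call that was lost without the NSG parental library (3.61, edgeR adjusted p = 0.0641). In knockout tumors its value of 1.71 (SE 0.62, edgeR adjusted p = 0.0693) missed the threshold. Without the clone 54 library of NSG that value was 2.96 (edgeR adjusted p = 0.0263), and without that of Balb/c 2.13 (edgeR adjusted p = 0.0416). Without the clone 69 library of NSG it was 1.04, and without that of Balb/c 1.11. DESeq2 called it as well (1.72, adjusted p = 0.0249), as did edgeR without a filter on low counts (1.71, adjusted p = 0.0252).

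The 2 other Ikaros family genes examined, which are expressed widely in lymphocytes, also differed by host. Ikzf1 was at 23.2 to 32.2 CPM in NSG and 108 to 179 CPM in Balb/c. Ikzf3 had 1 to 9 counts in NSG and reached 139 and 130 CPM in Balb/c wild type and 49.0 and 116 CPM in Balb/c knockout.

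The interleukin 2 receptor alpha chain gene, Il2ra, was at 2.91 and 1.08 CPM in NSG wild type, 0.748 and 0.398 CPM in NSG knockout, 35.5 and 41.5 CPM in Balb/c wild type, and 33.2 and 42.7 CPM in Balb/c knockout. The 4 Balb/c libraries lay close together, while the NSG libraries, with 4 to 42 counts, spanned a 7.31-fold range. Il2ra was 18.9-fold higher in Balb/c in wild-type tumors (log2 fold change 4.24, SE 0.42, edgeR adjusted p = 0.00109) and 65.7-fold higher in knockout tumors (6.04, SE 0.50, edgeR adjusted p = 0.000359). Leaving out the NSG parental library raised the wild-type value to 5.14. The beta and gamma chains, which complete the receptor and serve other cytokines too, were higher as well. Il2rb was at 0.795 to 4.17 CPM in NSG and 136 to 230 CPM in Balb/c, and Il2rg, the gene that NSG mice carry in mutated form, at 5.81 to 7.48 and 98.2 to 157 CPM. Il2 itself had 0 counts in every NSG library and 1 to 7 counts in the Balb/c libraries, and it did not pass the filter on low counts.

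The 3 costimulatory TNF receptor genes rose in both genotypes. Tnfrsf4, which encodes OX40, was at 1.59 and 1.32 CPM in NSG wild type, 0.748 and 0.596 CPM in NSG knockout, 20.5 and 13.4 CPM in Balb/c wild type, and 18.0 and 20.9 CPM in Balb/c knockout. This was an 11.5-fold difference between hosts in wild-type tumors (log2 fold change 3.52, SE 0.32, edgeR adjusted p = 0.000856) and a 28.6-fold difference in knockout tumors (4.84, SE 0.36, edgeR adjusted p = 0.000296). Its neighbour Tnfrsf18, which encodes GITR, was at 0.969 and 1.08 CPM in NSG wild type, 3.74 and 1.99 CPM in NSG knockout, 24.4 and 16.6 CPM in Balb/c wild type, and 22.9 and 24.4 CPM in Balb/c knockout. In Balb/c wild type and knockout overlapped for both genes, and the vCas9 library was lowest, with a 95% counting interval below those of the others. In NSG the knockout libraries had less Tnfrsf4 and more Tnfrsf18 than the wild-type libraries. Neither difference passed (edgeR adjusted p = 0.298 and 0.237), nor did the difference of the knockout effect between hosts (edgeR adjusted p = 0.167 and 0.189). Tnfrsf18 differed between hosts by 19.9-fold in wild type (log2 fold change 4.31, SE 0.38, edgeR adjusted p = 0.000828) and by 8.27-fold in knockout (3.05, SE 0.34, edgeR adjusted p = 0.000947).

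Tnfrsf9, which encodes CD137, stood at 10.9 and 11.5 CPM in NSG wild type, 5.56 and 2.29 CPM in NSG knockout, 57.4 and 77.6 CPM in Balb/c wild type, and 121 and 153 CPM in Balb/c knockout. The 4 groups did not overlap, and the order of wild type and knockout was opposite in the 2 hosts. The host difference was 6.04-fold in wild type (log2 fold change 2.59, SE 0.34, edgeR adjusted p = 0.00281) and 35.0-fold in knockout (5.13, SE 0.39, edgeR adjusted p = 0.000319). The knockout value was 5.90 on the log2 scale without the NSG clone 54 library.

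Their ligands did not follow the receptors. Tnfsf18, the ligand of GITR, was at 4.92 to 7.04 CPM in NSG and 0.485 to 1.43 CPM in Balb/c, with log2 fold changes of -3.71 (SE 0.42, edgeR adjusted p = 0.00175) in wild-type and -2.15 (SE 0.38, edgeR adjusted p = 0.00484) in knockout tumors. Tnfsf4, the OX40 ligand, ranged from 0.855 to 3.67 CPM in NSG and from 1.27 to 2.89 CPM in Balb/c. Tnfsf9, the CD137 ligand, ranged from 8.05 to 13.9 CPM and from 7.04 to 10.9 CPM. Neither passed the test in any comparison.

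**Figure D2:**
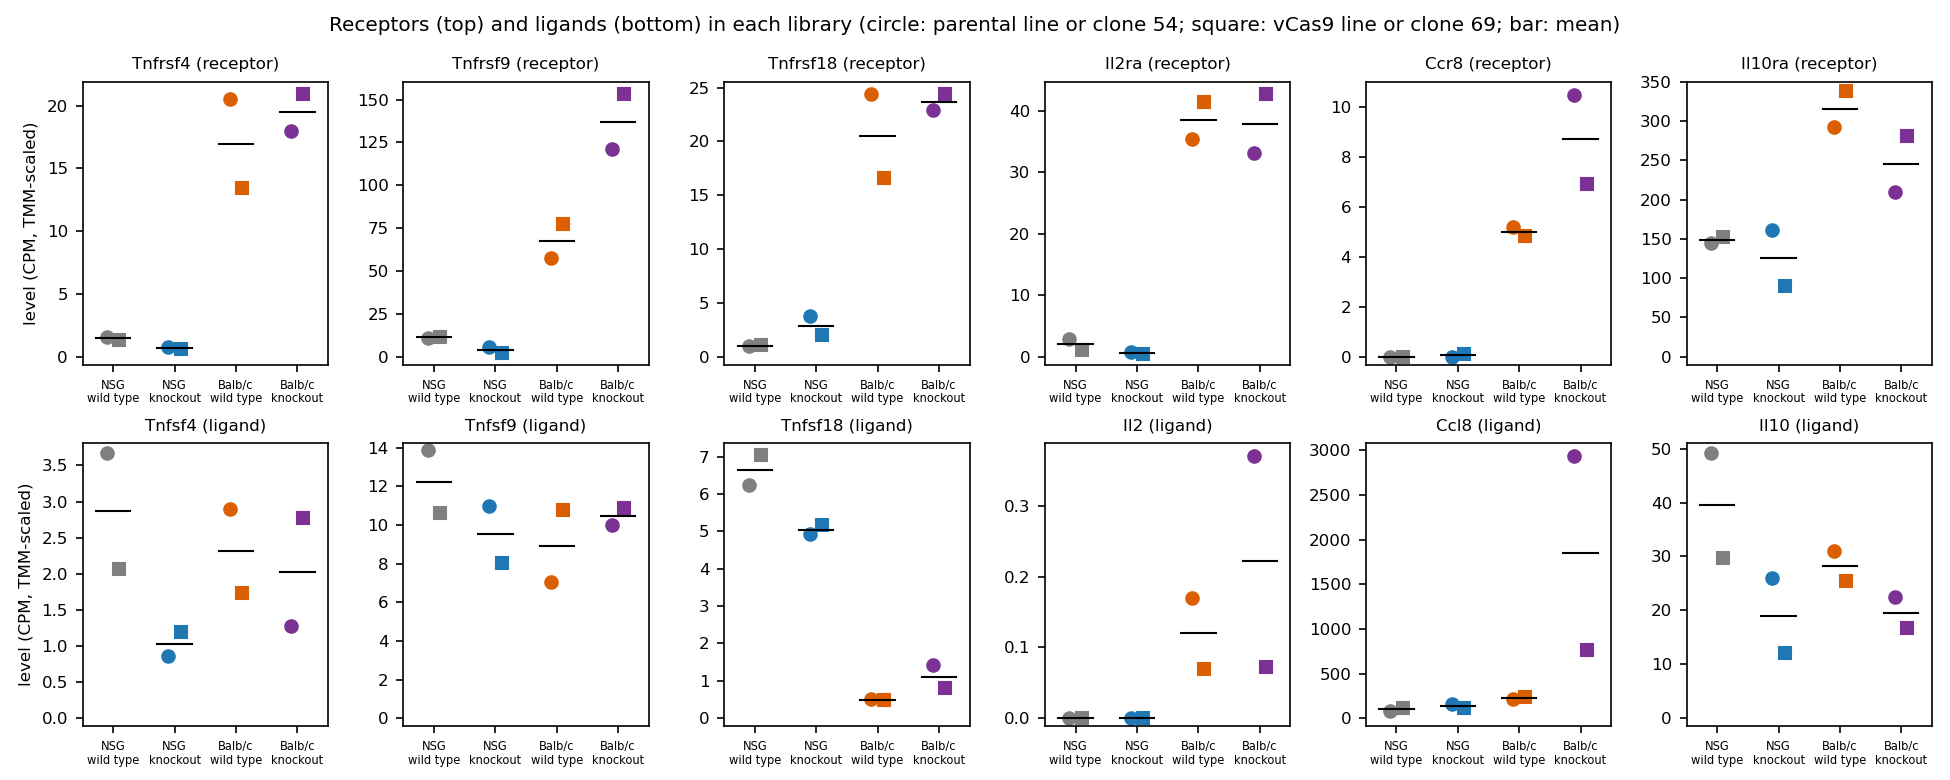
Levels in CPM (vertical axes, linear) of 6 receptor genes in the upper row and of a ligand of each in the lower row, in the 8 libraries, with circles for the parental line or clone 54, squares for the vCas9 line or clone 69, and bars at group means. Tnfrsf4, Tnfrsf9 and Tnfrsf18 are high in Balb/c, whereas Tnfsf18 is high in NSG (4.92 to 7.04 CPM).

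Ccr8, the chemokine receptor of tumor regulatory T cells, had 0 counts in 3 NSG libraries and 1 count in that of clone 69. In Balb/c it had 61 and 70 counts in wild type (5.18 and 4.85 CPM) and 198 and 95 counts in knockout (10.5 and 6.92 CPM). Against a floor of 3 counts per library, Ccr8 in wild-type tumors was at least 22.0-fold higher with the Balb/c host. In knockout tumors, 293 counts against 1 gave a ratio of 174 with a 95% counting interval of 31.0 to 6910. Ccr8 passed the filter on low counts only through Balb/c, so no p-value is given here for its host difference. Ccl1, a ligand of CCR8, had at most 4 counts in NSG and 5 to 25 counts in Balb/c. Ccl8, the other mouse ligand, was at 85.6 to 160 CPM in NSG, 213 and 237 CPM in Balb/c wild type, and 2940 and 765 CPM in Balb/c knockout. Macrophages make Ccl8, and the summed level of 9 macrophage markers was 2180 and 2530 CPM in Balb/c wild type and 10900 and 4430 CPM in Balb/c knockout. Clone 54 was the highest library in both measures. The part of macrophage content in the Ccl8 values was not tested.

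Il10 and Lrrc32 departed from the other 8 genes. Il10 was at 49.2 and 29.8 CPM in NSG wild type, 26.0 and 12.1 CPM in NSG knockout, 31.1 and 25.5 CPM in Balb/c wild type, and 22.4 and 16.8 CPM in Balb/c knockout. The hosts overlapped, with log2 fold changes of -0.48 (SE 0.37, edgeR adjusted p = 0.342) in wild type and 0.05 (SE 0.38, edgeR adjusted p = 0.94) in knockout. With 1 library left out the wild-type value ran from -0.81 (without the NSG vCas9 library) to -0.08 (without the NSG parental library). Lrrc32 was at 50 and 79.2 CPM in NSG wild type, 55.0 and 63.1 CPM in NSG knockout, 33.5 and 23.5 CPM in Balb/c wild type, and 22.9 and 19.2 CPM in Balb/c knockout. All Balb/c libraries lay below all NSG libraries. The fall was 2.27-fold in wild type (log2 fold change -1.18, SE 0.27, edgeR adjusted p = 0.0159) and 2.80-fold in knockout (-1.48, SE 0.27, edgeR adjusted p = 0.00572). In wild-type tumors the call was lost with the cell line as a block (-1.17, edgeR adjusted p = 0.0677). It was also lost without the vCas9 library of NSG (-0.83, edgeR adjusted p = 0.0961) and without that of Balb/c (-0.88, edgeR adjusted p = 0.123).

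Macrophages and several other cell types are known to express Il10, and platelets, endothelial cells and fibroblasts can express Lrrc32. Markers of these cells were measured in both hosts. The 9 macrophage markers summed to 1770 to 3460 CPM in NSG, and none of the 9 was at 0 in a library. The highest Il10 level of any library, 49.2 CPM, was in an NSG library with 36 counts of Cd3d, Cd3e and Cd3g together, the genes of the CD3 chains of the T cell receptor. The 9 endothelial markers summed to 248 to 557 CPM in NSG and to 190 to 571 CPM in Balb/c. The 6 platelet markers summed to 26.2 to 123 CPM in NSG and 49.1 to 86.0 CPM in Balb/c, while the 7 fibroblast markers summed to 17500 to 33500 and 3960 to 12800 CPM. Lrrc32 and the fibroblast sum both had all 4 Balb/c libraries under all 4 NSG libraries. So did the sum of the 6 proliferation markers (555 to 947 CPM in NSG and 238 to 383 CPM in Balb/c). The sum of the 7 mast cell markers did as well (93.5 to 227 and 55.5 to 86.7 CPM). In wild-type tumors, against 15.3% of all genes called higher in Balb/c and 16.2% lower, 1 macrophage marker was called higher and 2 lower, and 3 endothelial, 1 fibroblast and 1 platelet marker were called lower. In knockout tumors, against 15.7% and 15.4%, 7 macrophage, 1 endothelial and 1 platelet marker were called higher and 6 fibroblast markers lower. Of the proliferation and mast cell markers, 5 of 6 and 5 of 7 were called lower in wild-type tumors, with 1 mast cell marker higher. In knockout tumors 5 of 6 and 4 of 7 were called lower and 0 higher. Which cells carried Lrrc32 and Il10 was not tested.

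Partners of interleukin 10 and GARP were also examined. Il10ra, the signaling chain of the interleukin 10 receptor, was higher in Balb/c (log2 fold change 1.08, SE 0.29, edgeR adjusted p = 0.0263 in wild type). Tgfb1 was higher too (0.61, SE 0.16, edgeR adjusted p = 0.0277 in wild type). With the cell line as a block, neither passed in wild-type tumors, with edgeR adjusted p of 0.0819 and 0.0807. Both calls were also lost without any 1 of the 4 wild-type libraries, with edgeR adjusted p of 0.0839 to 0.138 for Il10ra and 0.0946 to 0.146 for Tgfb1. Scaling by total counts ended the wild-type Tgfb1 call as well (0.45, edgeR adjusted p = 0.100). In knockout tumors Tgfb1 passed (0.89, edgeR adjusted p = 0.0062), and Il10ra did so (0.97, edgeR adjusted p = 0.0357) but not with the block (edgeR adjusted p = 0.0953), with only the 4 libraries compared (0.121), or without the clone 69 library of NSG (0.155) or of Balb/c (0.110). The Il10ra call was also lost without any 1 of the 4 wild-type libraries. With 1 library left out, the Il10ra value in knockout tumors ran from 0.61 (without the NSG clone 69 library) to 1.45. Itgb8, whose product helps to release TGF-beta from GARP, rose from 1.52 and 2.07 CPM to 8.66 and 12.7 CPM in wild-type tumors (log2 fold change 2.58, SE 0.45, edgeR adjusted p = 0.00696), a call lost without the NSG parental library (edgeR adjusted p = 0.0668). The knockout value of 1.01 (SE 0.42, edgeR adjusted p = 0.105) missed the threshold, and ran from 0.60 (without the Balb/c clone 69 library) to 1.54 (without the NSG clone 54 library).

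**Figure D3:**
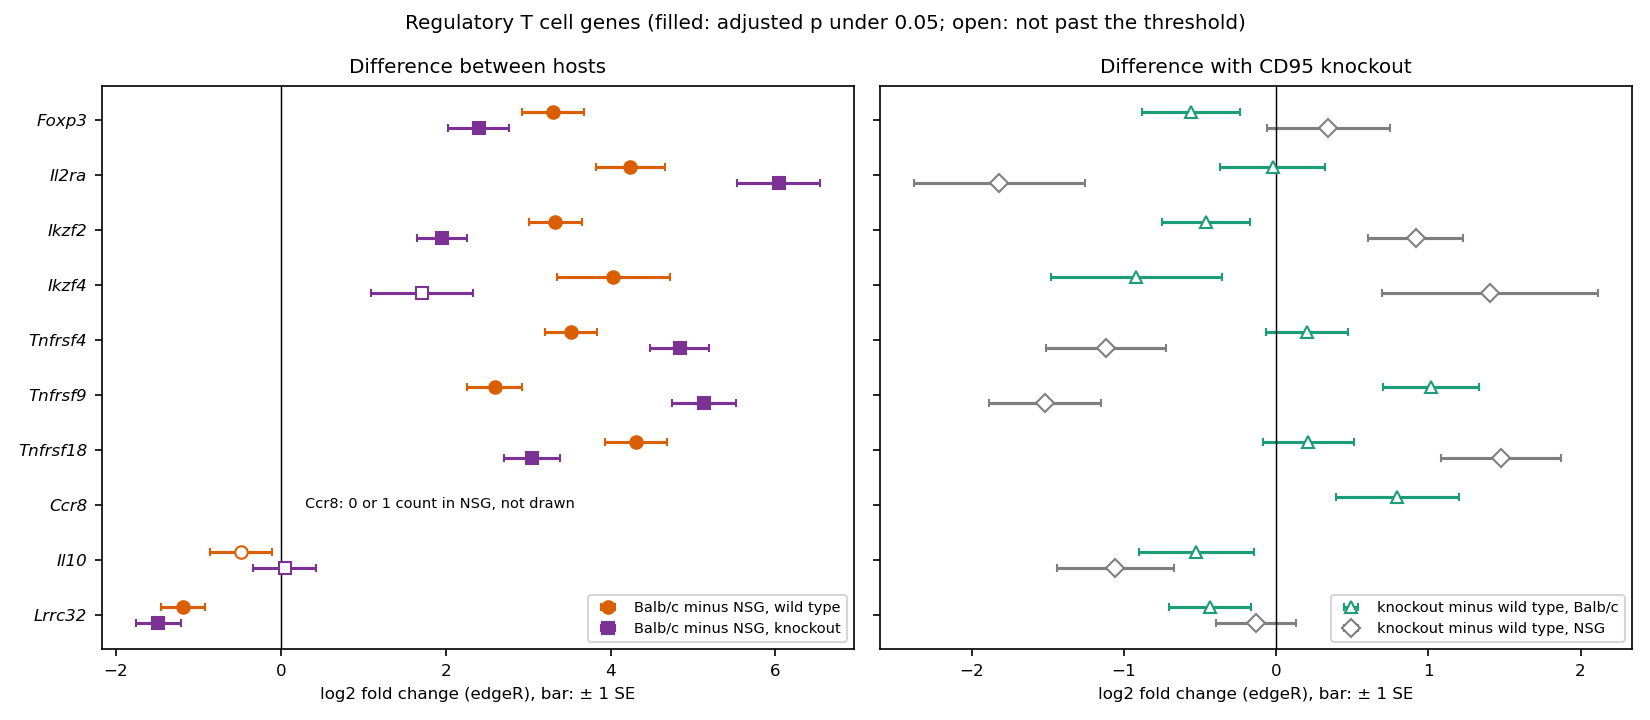
Log2 fold change of each gene (horizontal axis, bars of 1 SE from edgeR), Balb/c minus NSG on the left and knockout minus wild type on the right, with filled symbols for an adjusted p under 0.05. Filled symbols appear only on the left; Ccr8 is drawn only for Balb/c because its NSG libraries had 0 or 1 count.

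Within Balb/c, CD95 knockout changed none of the 10 genes past the threshold, where 0.176% of all genes (27 of 15310) passed. At an unadjusted p under 0.05 there was 1 gene, Tnfrsf9, against 30.9% of all genes, and DESeq2 also called that 1 gene, against 16.0% of the genes to which it gave an adjusted p. The 2 knockout libraries lay outside the range of the 2 wild-type libraries for 7 of the 10 genes, against 62.2% of all genes, so this share is near the background. Foxp3, Ikzf2, Ikzf4, Il10 and Lrrc32 were the 5 on the lower side, against 29.3% of all genes, and Tnfrsf9 and Ccr8 the 2 on the higher side, against 32.9%. The median log2 fold change was -0.23, against 0.06 over all genes.

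For Foxp3 in Balb/c the knockout log2 fold change amounted to -0.56 (SE 0.32, edgeR adjusted p = 0.269), and clone 54 lay farther from wild type than clone 69. Without clone 54 the value was -0.32, and without clone 69 it was -0.98. The 95% counting intervals were 9.92 to 13.9 and 8.41 to 11.7 CPM in wild type, 4.49 to 6.66 CPM for clone 54 and 7.78 to 11.1 CPM for clone 69. The clone 69 interval thus overlapped both wild-type intervals, and the clone 54 interval neither. Ikzf4 and Ikzf2 had the same order of libraries, with clone 54 lowest, clone 69 next and both wild-type lines above, and log2 fold changes of -0.92 (SE 0.56, edgeR adjusted p = 0.294) and -0.46 (SE 0.29, edgeR adjusted p = 0.306). Without clone 54 the Ikzf4 value was -0.58, and without clone 69 it was -1.52. Flicr had a value of -1.59 (SE 0.45, edgeR adjusted p = 0.0741). Il2ra, Tnfrsf4 and Tnfrsf18 had overlapping groups and values of -0.02 (SE 0.34), 0.20 (SE 0.27) and 0.21 (SE 0.30), with edgeR adjusted p of 0.973, 0.626 and 0.654.

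Tnfrsf9 had the largest value of the 10 in Balb/c, 1.02 (SE 0.31, edgeR adjusted p = 0.0844), with both clones above both wild-type lines. It passed the threshold with DESeq2 (0.92, adjusted p = 0.0441) and in edgeR without a filter on low counts (0.95, adjusted p = 0.0456). Ccr8 had a value of 0.80 (SE 0.40, edgeR adjusted p = 0.225). Its 198 counts in clone 54 set it apart from 95 in clone 69 and 70 and 61 in wild type, and without clone 54 the value was 0.36. Il10 and Lrrc32 had values of -0.52 (SE 0.38, edgeR adjusted p = 0.372) and -0.43 (SE 0.27, edgeR adjusted p = 0.300). With 1 Balb/c library left out, Il10 ran from -0.85 (without clone 54) to -0.33 (without clone 69), and Lrrc32 from -0.75 (without vCas9) to -0.15 (without the parental line). CD137 is also carried by activated CD8 T cells and NK cells: the summed level of 7 NK markers was 116 and 181 CPM in wild type and 229 and 195 CPM in knockout, and that of 2 CD8 markers 62.6 and 112 CPM against 88.0 and 102 CPM. No gene of any marker list passed the edgeR threshold for knockout in Balb/c. At an unadjusted p under 0.05, where 30.9% of all genes had such a p, 9 of 9 macrophage markers (median log2 fold change 1.36), 9 of 9 endothelial markers (1.74) and 5 of 7 mast cell markers (1.03) were higher, and 5 of 7 neutrophil markers (-2.44) and 4 of 5 B cell markers (-3.48) were lower. The part of these cells in the Tnfrsf9 values was not tested.

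The same values were set against the T cell receptor transcripts of each library. Foxp3 stood at 8.76 and 8.46 counts per 100 counts of Cd3d, Cd3e and Cd3g in Balb/c wild type (95% counting intervals 7.31 to 10.4 and 7.09 to 10), at 5.06 in clone 54 (4.11 to 6.16) and at 7.94 in clone 69 (6.58 to 9.51). Both clones were lower than both wild-type lines, a log2 difference of -0.44 with an exact permutation p of 0.333 (two-sided), the smallest that 2 against 2 libraries allow. Without clone 54 the difference was -0.12, and without clone 69 it was -0.77. The direction depended on the gene used for scale: per Cd4 count the difference was -0.89, and per Cd3e count it was 0.30, where the knockout libraries had less Cd3e (26.0 and 37.5 against 65.9 and 51.4 CPM) and more Cd3g (58.8 and 56.3 against 42.4 and 48.0 CPM). In NSG the 3 CD3 genes together had 36, 42, 3 and 9 counts against 12 to 16 counts of Foxp3, so the ratio there, from 31.0 to 400 per 100, rests on too few counts to compare.

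The other genes were scaled likewise. Tnfrsf9 went from 42.6 and 65.9 per 100 counts in wild type to 111 and 130 in knockout, and Ccr8 from 3.84 and 4.11 to 9.63 and 5.89. Ikzf4 went from 11.2 and 9.87 to 4.23 and 8.12, and Ikzf2 from 72.5 and 70.4 to 51.4 and 64.0. Il10 went from 23.1 and 21.6 to 20.6 and 14.3. Tnfrsf4 and Tnfrsf18, whose groups overlapped in CPM, did not overlap on this scale, with 15.2 and 11.3 against 16.6 and 17.8 and with 18.1 and 14 against 21.1 and 20.8. Both clones were higher than both wild-type lines for 4 genes (Tnfrsf4, Tnfrsf9, Tnfrsf18 and Ccr8), against 39.2% of all genes on this scale, so this share is near the background, and lower for 4 (Foxp3, Ikzf2, Ikzf4 and Il10), against 21.4%. Il2ra, at 26.3 and 35.2 against 30.5 and 36.3, and Lrrc32, at 24.9 and 19.9 against 21.1 and 16.4, overlapped. These orders depended on the gene used for scale. Per Cd3e count, 8 of the 10 were higher in both clones, all but Ikzf4 and Il10, against 72.2% of all genes, so this share is near the background. None was lower, against 4.70%. On that scale Ikzf2 turned round, from 148 and 161 per 100 counts in wild type to 215 and 201 in knockout. Per Cd4 count none was higher, against 3.17% of all genes, and Ikzf4, Il10 and Lrrc32 were the 3 lower ones, against 14.3%.

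**Figure D4:**
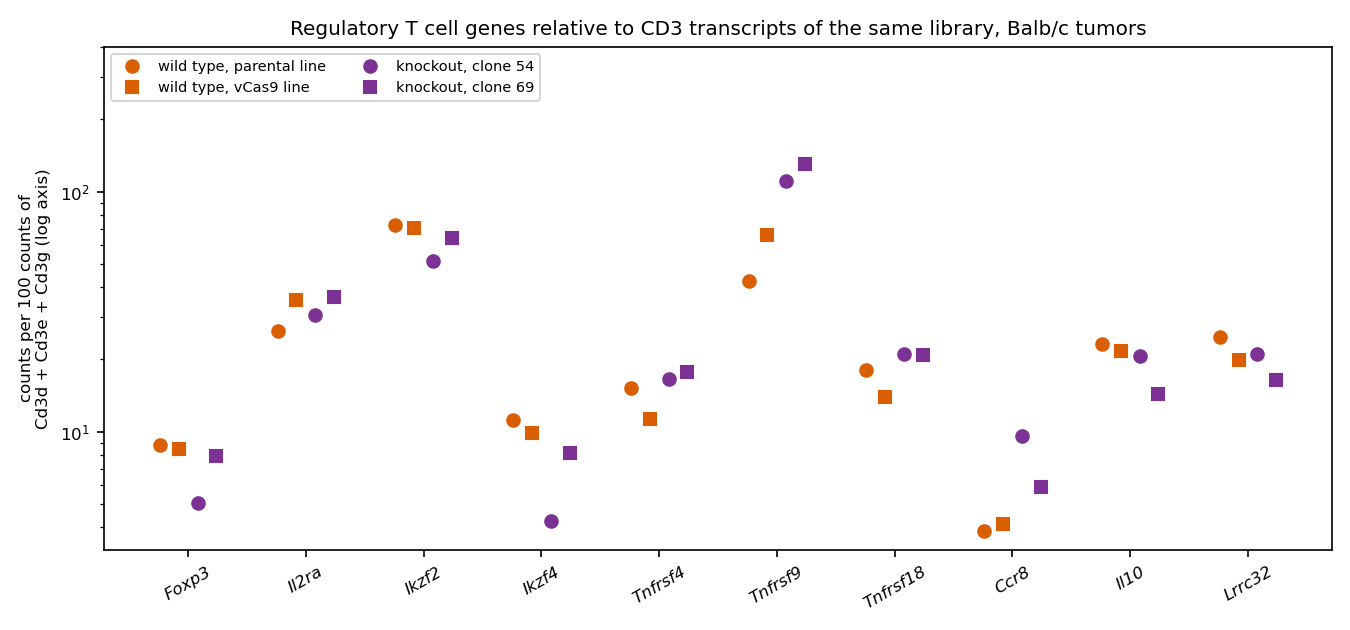
Counts of each regulatory T cell gene per 100 counts of Cd3d, Cd3e and Cd3g together (vertical axis, log scale) in the 4 Balb/c libraries, with orange for wild type and purple for knockout, circles for the parental line or clone 54 and squares for the vCas9 line or clone 69. Foxp3 lies at 8.76 and 8.46 in wild type and at 5.06 and 7.94 in knockout, and Tnfrsf4, Tnfrsf9, Tnfrsf18 and Ccr8 lie higher in both clones.

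In NSG tumors, knockout changed 0 of the 10 genes past the edgeR threshold, where 0.0131% of all genes passed. At an unadjusted p under 0.05 there were 6, 2 higher and 4 lower, against 14.0% of all genes, and DESeq2 called 1, Tnfrsf9, against 2.41% of the genes to which it gave an adjusted p. Ccr8, with 1 count in all of NSG, is given no value. Among the other 9 genes the largest values were -1.82 for Il2ra (SE 0.56, edgeR adjusted p = 0.261), -1.52 for Tnfrsf9 (SE 0.37, edgeR adjusted p = 0.204), 1.48 for Tnfrsf18 (SE 0.39, edgeR adjusted p = 0.237) and 1.40 for Ikzf4 (SE 0.71, edgeR adjusted p = 0.411). The counts behind them were small, from 4 to 42 for Il2ra and from 8 to 32 for Ikzf4, and 1 library moved several of the values by over 1.5 times. Ikzf4 was at 0.15 without the clone 54 library, Il2ra at -0.91 without the parental library, Tnfrsf18 at 0.95 without clone 54, and Tnfrsf9 at -2.29 without clone 54 and -1.01 without clone 69. Tnfrsf4 had a value of -1.11 (SE 0.39, edgeR adjusted p = 0.298), Il10 -1.05 (SE 0.38, edgeR adjusted p = 0.304) and Ikzf2 0.92 (SE 0.31, edgeR adjusted p = 0.288). Without the parental library the last 2 were at -0.65 and 0.50, without the vCas9 library Ikzf2 was at 1.47, and Il10 was at -1.71 without clone 54 and -0.61 without clone 69. Foxp3 and Lrrc32 had values of 0.34 (SE 0.40, edgeR adjusted p = 0.725) and -0.13 (SE 0.26, edgeR adjusted p = 0.845). Without the clone 69 library the Foxp3 value was 0.23. In NSG the macrophage sum was 3440 and 3460 CPM in wild type and 1770 and 2310 CPM in knockout, and the platelet sum 123 and 98.2 against 26.2 and 31.7 CPM. None of the 9 macrophage markers or the 4 platelet markers tested passed the edgeR threshold, while 4 and 2 of them were lower at an unadjusted p under 0.05. The 7 epithelial and 4T1 tumor cell markers summed to 1120 and 1450 CPM in wild type and 3150 and 2180 CPM in knockout. All 7 had positive values (median 1.43), 3 of them at that p. The 7 fibroblast markers were positive too (median 0.62), with 0 at that p. Of 12 T cell markers 10 were negative (median -0.51), 2 of them at that p. No marker of these lists passed the edgeR threshold. Their part in the NSG values was not tested.

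The knockout effect in Balb/c minus that in NSG was the last test. None of the 10 genes, and 0% of all genes, passed the edgeR threshold. At an unadjusted p under 0.05 there were 6 of the 10, 3 more positive and 3 more negative in Balb/c, against 22.5% of all genes. DESeq2 called 2, Tnfrsf9 and Ikzf2, against 7.05% of the genes to which it gave an adjusted p. Tnfrsf9 had the largest difference, 2.54 (SE 0.49, edgeR adjusted p = 0.0801), with both clones above the wild-type lines in Balb/c and below them in NSG. The macrophage markers had positive differences too, with a median of 2.25 and 9 of 9 at an unadjusted p under 0.05, and the neutrophil markers negative ones, with a median of -3.03 and 6 of 7. Their part in the Tnfrsf9 difference was not tested. Over the alternatives its value ranged from 2.03 to 3.31 and its adjusted p from 0.000207 to 0.341. Ikzf2 lay the other way round, below wild type in Balb/c and above it in NSG, with a difference of -1.38 (SE 0.43, edgeR adjusted p = 0.133). Il2ra (1.80, SE 0.66) and Tnfrsf4 (1.32, SE 0.48) had positive differences, and Ikzf4 (-2.32, SE 0.90), Tnfrsf18 (-1.26, SE 0.49) and Foxp3 (-0.90, SE 0.52) negative ones, with edgeR adjusted p of 0.167 to 0.335. Without the NSG clone 54 library the differences were -1.06 for Ikzf4 and -0.73 for Tnfrsf18, and without the NSG parental library that for Il2ra was 0.90.

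Levels can be compared between genes only per length of transcript, and CPM per kilobase of annotated exon was used for this. In Balb/c wild type, Tnfrsf9 (24.8 ± 5.26, SD, n = 2) and Il10 (21.6 ± 3.01) were highest and overlapped. Tnfrsf18 (13.4 ± 3.62) and Tnfrsf4 (12.4 ± 3.67) came next, then Ikzf2, Il2ra and Lrrc32 between 6.08 and 7.77, Ccr8 at 4.27 ± 0.199, and lowest Foxp3 (2.38 ± 0.282) and Ikzf4 (2.22 ± 0.400), which overlapped. In Balb/c knockout Tnfrsf9, at 50.3 ± 8.35, stood above all others, and Foxp3 (1.62 ± 0.592) and Ikzf4 (1.18 ± 0.584) were again lowest. In NSG wild type Il10 (30.2 ± 10.5) and Lrrc32 (13.8 ± 4.40) led, and in NSG knockout they did so at 14.5 ± 7.48 and 12.6 ± 1.23. The level of every other gene in NSG was 4.11 CPM per kilobase or lower on average. By group mean Foxp3, the defining gene of the lineage, was among the 3 lowest of the 10 in every group. In single libraries its place overlapped with that of its neighbours, and it lay above Ccr8, Ikzf4 and Il2ra in the NSG libraries of vCas9 and clone 69.

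Over the 8 libraries, the 28 pairs among the 8 genes other than Il10 and Lrrc32 had Pearson correlations of log2 CPM between 0.767 and 0.988. Lrrc32 had correlations of -0.928 to -0.778 with those 8, and Il10 of -0.336 to 0.0686. The libraries fall into 2 hosts, and correlations within a host were not computed. Among all expressed genes, those closest in pattern to Foxp3 were Rcsd1 (0.996), A430093F15Rik (0.995) and Hba-a2 (0.995). Sh2d2a (0.997), Cd28 (0.995) and S1pr4 (0.995) were closest to Tnfrsf4, and Itgb2 (0.998) to Tnfrsf9. H2-Ea-ps (0.999) was closest to Ccr8, H2-Q6 (0.997) to Il2ra, Skap1 (0.988) to Ikzf2, Rhoh (0.992) to Ikzf4 and Arid4a (0.996) to Tnfrsf18. Higd1a (0.967) was closest to Il10, and Neurl4 and Pappa (0.99 each) were closest to Lrrc32. These are descriptions over 8 libraries, 4 from each host, whose depths differ by up to 2.26-fold.

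Of 43 other genes of the regulatory T cell pathway, 41 passed the filter, 7 of them (Ccl1, Ctla4, Icos, Izumo1r, Klrg1, Ccr4 and Ikzf3) only through Balb/c libraries, so that these 7 could be tested only if they were higher there. In wild-type tumors 27 were higher, 6 of those 7 among them, and 3 lower in Balb/c, against 15.3% and 16.2% of all genes, with a median log2 fold change of 1.58 against -0.08. In knockout tumors 25 were higher, including all 7, and 2 lower, against 15.7% and 15.4%, with a median of 1.38 against 0.02. Ctla4, the inhibitory receptor by which regulatory T cells strip costimulatory ligands from other cells, had at most 2 counts per NSG library, against 94.8 to 145 CPM in Balb/c. Icos, a costimulatory receptor, had at most 3 counts in NSG, against 106 to 152 CPM in Balb/c. Higher genes in both genotypes also included Itgae, Izumo1r, Entpd1, Tigit, Lag3, Klrg1, Ccr4, Batf, Irf4, Satb1, Socs2 and Stat5b. The genes called lower were Tnfsf18 and Nt5e in both genotypes and Nrp1 in wild-type tumors. Many of these genes are also expressed by conventional T cells, NK cells or myeloid cells. For knockout, 0 of the 41 passed the edgeR threshold in either host. At an unadjusted p under 0.05, 3 were higher and 6 lower in Balb/c, where 30.9% of all genes had such a p, and 2 were higher and 5 lower in NSG, where 14.0% did. Of the 15 named receptors, ligands and family members, DESeq2 called 1 in Balb/c, Ccl8, against 16.0% of the genes to which it gave an adjusted p, and 1 in NSG, Tgfb1, against 2.41%. The Ccl8 value in Balb/c was 3.04 (SE 0.57, edgeR adjusted p = 0.0564). It passed in edgeR without a filter on low counts (2.99, adjusted p = 0.00218), where 1774 genes passed, and without the Balb/c clone 69 library (3.72, adjusted p = 0.00313), where 3886 genes passed, against 27 with all libraries and the filter. Without the Balb/c clone 54 library the value was 1.66 (edgeR adjusted p = 0.0917).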

How the data were processed

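RNA-seq read counts of 8 libraries were used as deposited by the authors, as whole numbers per Ensembl gene with no normalization. Per the submitters' processing notes, cutadapt 1.13, STAR, HTSeq 0.6.1p1 and DESeq2 were used and the builds mm10 and hg19 are named, without the role of each. The strand setting is not given in the sources used here. Symbols were found for 24942 of 25006 identifiers, and positions and exon lengths came from GENCODE M21 (GRCm38).

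All 8 libraries entered 1 edgeR 4.0.16 model (R 4.3.3) with 4 group means, TMM scaling, filterByExpr and the quasi-likelihood test. After filtering, 15310 genes were tested, with 4 residual degrees of freedom and a common biological coefficient of variation of 0.244. Benjamini-Hochberg adjustment ran over all of them, the threshold was 0.05, and SE is the log2 fold change divided by the root of the F statistic. Depth ran from 8.68 M to 19.7 M counts. Alternatives were RLE and total-count scaling, no filter, DESeq2 1.42.0, fits of only the libraries compared, leaving out each library, and blocks. Libraries of a group differed by more than sampling noise (chi-square per degree of freedom 18.2 to 117).

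Samples were grouped by host and CD95 status from the labels. The cell line pairs the hosts, as each line was grown in both. Deviations of the same line correlated across genes between hosts with r of 0.087 for the wild-type lines and -0.35 for the clones.

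The members and lists were chosen with earlier results of these data known, so no adjusted p over a list is given. Genes named are the 10 members, 15 receptors, ligands and family members listed with them, markers, and for each member the genes with the highest Pearson correlation of log2 CPM (prior count 2, mean of at least 1 CPM). Named besides these are Fas, other genes of the regulatory T cell pathway list and genes whose exons overlap Foxp3. Of the last, Flicr was looked at after the Foxp3 values were seen. Motif letters were searched in RefSeq promoters.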

Additional observations from a re-analysis of the deposited data

How the results depend on the processing

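Of 689 member values under an alternative, 661 kept their direction and their side of the threshold, 4 no longer passed, 14 newly passed and 10 changed sign, none of them a value that had passed. Of the calls for the 8 genes higher in Balb/c wild type, 7 or 8 held in every setting, Ikzf4 missing without the NSG parental library (3.61, edgeR adjusted p = 0.0641). Lrrc32 left 0 lower genes once a replicate block for the cell line was fitted, and without either wild-type vCas9 library. The block changed no other member call.

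The number of genes called among all tested moved more. For the host effect it was 4825 in wild type (leave-one-out 858 to 6361; line block 2073) and 4757 in knockout (leave-one-out 2461 to 4640; only the 4 libraries compared 2450; line block 2878). For knockout in Balb/c it was 27 (RLE 94, no filter 1774, DESeq2 2208, 4 libraries 0, leave-one-out 0 to 3886), in NSG 2 (no filter 133, DESeq2 340, 4 libraries 1, leave-one-out 0 to 1), and for the difference between hosts 0 (no filter 674, DESeq2 974, crossed block 307, leave-one-out 0 to 2370). Members called went from 0 to 1 higher in Balb/c and from 0 to 1 lower in NSG with no filter and with DESeq2, each time Tnfrsf9. For the difference between hosts, 1 member, Tnfrsf9, was called higher with no filter, with DESeq2, without the Balb/c clone 69 library (2.37, edgeR adjusted p = 0.0248) and with the crossed replicate block, and DESeq2 called 1 lower, Ikzf2. The crossed pairing, which matches clone 54 in 1 host with clone 69 in the other, was chosen after the data were seen and called 5436 genes for the host effect in knockout tumors, among them Ikzf4 (1.83, adjusted p = 0.0144) and Itgb8 (1.03, adjusted p = 0.0251), which had missed the threshold. With total counts the all-gene median moved on the log2 scale from -0.08 to -0.24 in wild type and from 0.02 to -0.17 in knockout tumors. The cause of these differences was not tested.

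Values that changed sign had not passed the test. With 1 library left out, members ranged in Balb/c knockout from -0.21 to 0.0475 (Il2ra, and 0.0244 with total counts), -0.15 to 0.54 (Tnfrsf4) and -0.12 to 0.52 (Tnfrsf18). Il10 in the knockout host comparison ranged from -0.40 to 0.70 (total counts -0.12), and Lrrc32 in NSG knockout from -0.43 to 0.23. The difference between hosts for Ccr8, with 1 count in NSG, rests on that count and ran from -2.76 to 0.80. Partner genes ranged likewise. Tnfsf4 ran from -0.74 to 0.14 (wild-type host effect) and from -0.84 to 0.21 (Balb/c knockout), and Tnfsf9 from -0.0773 to 0.38 (knockout host effect, total counts -0.0459) and from -0.0449 to 0.49 (Balb/c knockout). Ikzf1 ran from -0.67 to 0.0763 (Balb/c knockout), -0.21 to 0.27 (NSG knockout) and -0.72 to 0.0265 (difference between hosts). In NSG knockout Il2rb ran from -1.45 to 0.93, Il10ra from -0.74 to 0.10, Icos from -4.13 to 0.51 and Ikzf3 from -0.57 to 2.74. For the difference between hosts Il2rb ran from -0.36 to 2.02, Il2rg from -0.11 to 0.44, Il10ra from -0.46 to 0.38 and Icos from -0.18 to 4.45. Foxp3 per CD3 count ran from -0.77 to -0.12, and per Cd3e count it was 0.30. DESeq2 gave no adjusted p for Ccl1 in 3 comparisons.

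With 2 libraries a group and 4 residual degrees of freedom, knockout differences of Foxp3, Ikzf4 and Ccr8, which rest on 61 to 198 counts in Balb/c, were measured with standard errors of 0.32 to 0.56 on the log2 scale. In NSG the standard error for Foxp3, at 12 to 16 counts, was 0.40, and for Ccr8, with 1 count in all, no difference was detectable at this depth.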
